A study of Mus musculus with 2 samples.

Results

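The mouse genes named Zfp, for zinc finger protein, and the reporter elements nearest to them were examined in a STARR-seq reporter screen of activated CD4 T cells. Members were the protein-coding genes of GENCODE M21 basic whose symbol is Zfp followed by digits and at most 1 letter, without Zfp36, that were the nearest protein-coding transcription start site (TSS) within 100 kb of the midpoint of at least 1 listed element. Of 390 such genes in the annotation, 145 had an element, and 203 of the 10531 listed elements were assigned to them. The members were thus selected on the screen's own list, so their presence, effects and signs are given as a description, with no test. An element may act on another gene than the nearest.

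In STARR-seq (self-transcribing active regulatory region sequencing) genomic fragments are cloned into the transcribed part of a reporter plasmid, so that each fragment can change the amount of its own RNA. The labels give 2 biological replicates, with separate biosamples but 1 donor record, of naive CD4 T cells of strain C57BL/6NJ, of unstated age and uncollected sex. All cells carried the plasmid as an episome after transient transfection and had 3 days of anti-CD3e, anti-CD28, anti-Interleukin-4 and anti-Interferon-gamma antibodies with Interleukin-2, so no untreated or unactivated group was compared. Each replicate is labelled with 30 µg of nucleic acid at the start and a library size between 200 and 400.

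Most Zfp proteins carry arrays of C2H2 zinc fingers, each of which holds a zinc ion and contacts a few bases of DNA. Many also carry a Krüppel-associated box (KRAB), which recruits the corepressor TRIM28 and with it the histone methyltransferase SETDB1, and these proteins are known for silencing retroelements. KRAB zinc finger genes have multiplied by local duplication and sit in clusters of similar genes. Other Zfp genes are single, older and of varied function, so that the shared name covers unrelated roles.

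The authors deposited 1 list for both replicates together, with an effect and its p-value, raw and adjusted, for each element on build mm10. The effect was taken as log2. The sources used here state neither its log base nor which way the contrast runs, and a positive effect probably stands for more RNA than the input plasmid predicts. The list held 9.18% of the 114722 tests that its adjusted p-values imply, and what was tested without being listed is not analysed here. No value per replicate was in the list, so the depth is unknown and the replicate spread cannot be given for any element. Intervals below are exact Clopper-Pearson intervals at 95% over elements, which cover neither that spread nor the shared sequence of neighbouring elements.

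Stretches of the elements with the most extreme effects are shown here, since sign and base composition went together at promoters. They are the 3 largest and the 3 most negative at promoters among elements without a near-identical copy, read from the mm10 genome (GRCm38.p6) on the strand of the gene, as the central part of the longest stretch without annotated UTR. Capitals mark matches to the motifs listed in the paragraph on motifs, on either strand. The 3 positive promoter stretches are from Zfp758 (effect 2.72, chr17:22361401-22361452, plus strand), Zfp750 (2.42, chr11:121519826-121519950, minus strand) and Zfp943 (2.38, chr17:21962820-21962925, plus strand).
Zfp758: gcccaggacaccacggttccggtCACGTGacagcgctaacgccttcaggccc
Zfp750: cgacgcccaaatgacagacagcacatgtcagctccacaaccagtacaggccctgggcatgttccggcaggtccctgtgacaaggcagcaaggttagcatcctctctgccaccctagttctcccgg
Zfp943: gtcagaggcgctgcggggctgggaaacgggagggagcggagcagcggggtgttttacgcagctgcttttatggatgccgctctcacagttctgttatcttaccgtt
The 3 negative promoter stretches are from Zfp280d (-3.37, chr9:72275140-72275439, plus strand), Zfp385b (-2.95, chr2:77816817-77817038, minus strand) and Zfp326 (-2.64, chr5:105876779-105877078, plus strand).
Zfp280d: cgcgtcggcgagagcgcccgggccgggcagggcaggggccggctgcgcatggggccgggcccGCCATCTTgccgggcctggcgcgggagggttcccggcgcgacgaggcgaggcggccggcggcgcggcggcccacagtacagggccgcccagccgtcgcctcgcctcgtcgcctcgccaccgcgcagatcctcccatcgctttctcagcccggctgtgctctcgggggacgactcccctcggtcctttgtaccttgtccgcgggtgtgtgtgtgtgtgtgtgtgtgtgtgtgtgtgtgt
Zfp385b: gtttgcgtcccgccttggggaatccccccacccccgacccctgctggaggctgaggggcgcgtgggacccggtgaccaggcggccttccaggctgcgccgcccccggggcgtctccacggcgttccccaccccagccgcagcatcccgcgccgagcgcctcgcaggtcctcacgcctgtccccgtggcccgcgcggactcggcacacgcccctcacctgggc
Zfp326: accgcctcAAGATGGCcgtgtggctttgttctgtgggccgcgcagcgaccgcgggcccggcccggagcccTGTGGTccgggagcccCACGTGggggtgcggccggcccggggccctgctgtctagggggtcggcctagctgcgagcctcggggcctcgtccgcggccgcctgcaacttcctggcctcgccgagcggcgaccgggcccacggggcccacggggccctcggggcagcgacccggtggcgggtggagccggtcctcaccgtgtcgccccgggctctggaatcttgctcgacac
The negative stretches held 74.3%, 77.0% and 76.7% GC, against 67.3%, 59.2% and 58.5% in the positive ones, and the 300 bases of Zfp280d alone held 41 CpG dinucleotides. Matches to YY1 stood in the stretches of Zfp280d and Zfp326, and E-box matches in those of Zfp758 and Zfp326. The shares of both over all Zfp promoters are given in the paragraph on motifs.

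Away from promoters the same rule gave elements near Zfp53 (effect 8.89, chr17:21478001-21478300, plus strand), Zfp947 (3.85, chr17:22128076-22128350, minus strand) and Zfp954 (3.44, chr7:7096351-7096650, minus strand).
Zfp53: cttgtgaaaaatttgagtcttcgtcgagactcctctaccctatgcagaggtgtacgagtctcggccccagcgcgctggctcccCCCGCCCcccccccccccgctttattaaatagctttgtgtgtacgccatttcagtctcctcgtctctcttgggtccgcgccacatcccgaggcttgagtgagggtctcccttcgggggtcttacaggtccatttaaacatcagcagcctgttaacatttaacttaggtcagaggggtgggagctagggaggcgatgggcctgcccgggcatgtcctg
Zfp947: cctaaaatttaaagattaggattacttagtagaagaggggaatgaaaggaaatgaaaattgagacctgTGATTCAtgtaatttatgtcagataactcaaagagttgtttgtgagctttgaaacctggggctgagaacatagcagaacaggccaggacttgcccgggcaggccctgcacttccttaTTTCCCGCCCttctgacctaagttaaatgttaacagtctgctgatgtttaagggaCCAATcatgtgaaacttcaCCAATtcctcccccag
Zfp954: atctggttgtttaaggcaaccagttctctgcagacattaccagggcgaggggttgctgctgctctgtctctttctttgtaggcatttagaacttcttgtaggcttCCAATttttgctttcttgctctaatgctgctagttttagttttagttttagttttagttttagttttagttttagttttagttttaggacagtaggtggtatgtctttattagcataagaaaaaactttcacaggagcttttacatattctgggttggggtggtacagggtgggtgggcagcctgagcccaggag
The most negative ones lay near Zfp618 (-2.24, chr4:62889763-62890062, plus strand), Zfp827 (-2.18, chr8:79029476-79029750, plus strand) and Zfp945 (-1.81, chr17:22877701-22878000, minus strand).
Zfp618: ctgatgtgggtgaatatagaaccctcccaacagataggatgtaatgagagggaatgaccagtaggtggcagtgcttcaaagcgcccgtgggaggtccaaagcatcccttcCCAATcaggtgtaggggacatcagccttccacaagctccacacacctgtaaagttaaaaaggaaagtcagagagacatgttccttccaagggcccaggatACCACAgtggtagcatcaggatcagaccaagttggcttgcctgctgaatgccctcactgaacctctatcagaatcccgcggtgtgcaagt
Zfp827: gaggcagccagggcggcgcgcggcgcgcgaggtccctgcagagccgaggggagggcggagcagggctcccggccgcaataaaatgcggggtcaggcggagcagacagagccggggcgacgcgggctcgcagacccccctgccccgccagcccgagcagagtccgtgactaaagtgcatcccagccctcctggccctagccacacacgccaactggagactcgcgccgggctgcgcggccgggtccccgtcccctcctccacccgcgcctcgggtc
Zfp945: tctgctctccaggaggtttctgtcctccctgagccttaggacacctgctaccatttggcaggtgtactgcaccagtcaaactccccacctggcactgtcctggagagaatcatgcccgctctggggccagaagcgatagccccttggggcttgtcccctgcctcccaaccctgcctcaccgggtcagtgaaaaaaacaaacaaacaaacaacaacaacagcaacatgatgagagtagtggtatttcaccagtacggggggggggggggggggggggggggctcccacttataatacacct
The stretch near Zfp947 held 1 AP-1 match, 2 NFY matches and overlapping E2F and SP/KLF matches. The positive distal stretches held 57.7% (Zfp53), 42.5% (Zfp947) and 41.0% GC (Zfp954) and the negative ones 51.3% (Zfp618), 74.9% (Zfp827) and 57.0% (Zfp945). GC content thus did not separate the signs among these 6 stretches, but the whole element near Zfp53 held 45.4% GC. The stretch near Zfp954 held 1 CpG, and the one near Zfp827 held 32 CpG with no match to any of the motifs.

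An element was assigned to 37.2% of the 390 Zfp genes (145, interval 32.4 to 42.2), against 31.07% of the other protein-coding genes and 31.2% of all 21951 protein-coding genes. A single element was assigned to 105 of the 145 genes, 2 elements to 29, 3 elements to 8, 4 elements to 1 and 6 elements to 2. Of the 203 elements, 110 were positive and 93 negative. The positive share was 54.2% (interval 47.1 to 61.2), against 51.3% of all listed elements. The median effect was 1.39 over positive Zfp elements (range 0.68 to 8.89) and 1.36 over the other positive elements. Over negative elements it was -1.36 (range -3.37 to -0.65) for Zfp and -1.44 for the others. In their balance of signs and their median size the Zfp elements were near the rest of the list.

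The Zfp elements differed from the list in where their positive members lay. An element was counted at a gene's own promoter when its midpoint was within 1000 bp of that gene's TSS, and 113 Zfp elements were. A further 9 lay within 1000 bp of a TSS of another gene, and 81 lay farther from any TSS and are called distal. Of the 122 promoter elements of either kind, 46 were positive, or 37.7% (interval 29.1 to 46.9), against 19.9% of all listed promoter elements. At own promoters, 41 of 113 Zfp elements were positive, or 36.3% (interval 27.4 to 45.9), against 15.1% of 4861 own-promoter elements of other protein-coding genes. Of the 81 distal elements, 64 were positive, or 79.0% (interval 68.5 to 87.3), against 84.7% of all listed elements away from promoters. The Zfp share thus lay above that of the list at promoters and below it at distal sites, where the interval includes the share of the list.

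**Figure D1:**
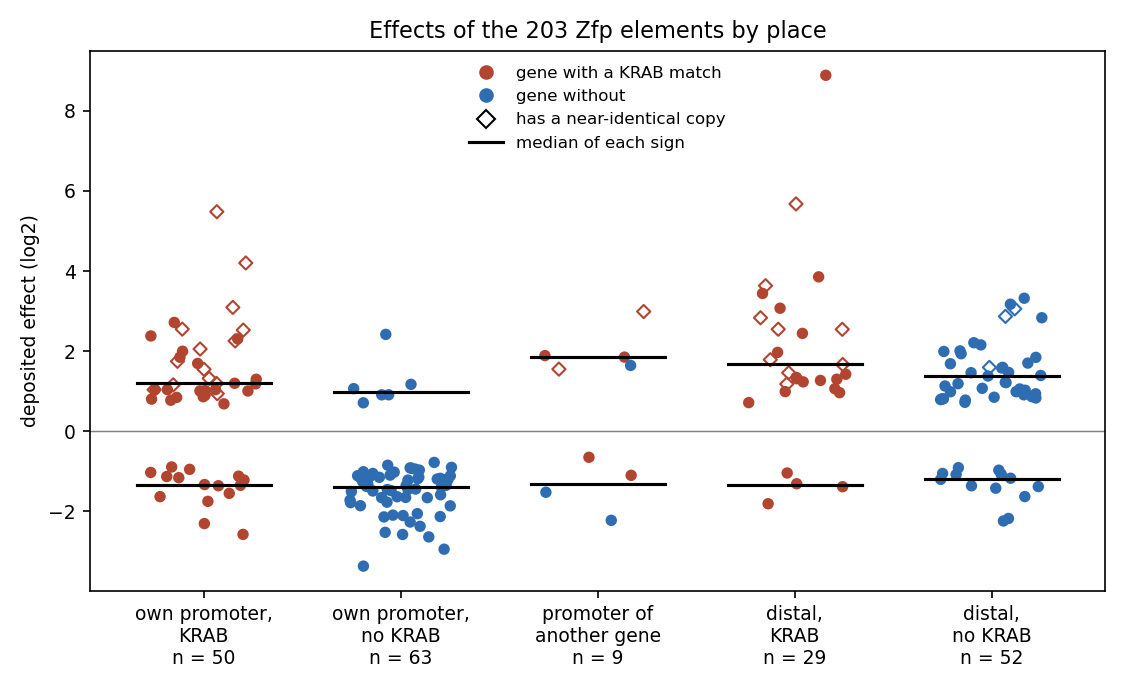
Deposited effect (log2, vertical axis) of each of the 203 Zfp elements by place and by whether the gene's protein matches a KRAB pattern; points are elements, open diamonds have a near-identical copy elsewhere in the genome, and black lines are the medians of each sign. Own promoters of KRAB genes were positive in 35 of 50 cases and those of other Zfp genes in 6 of 63, while distal elements of both kinds were mostly positive.

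The positive promoters belonged mainly to KRAB genes. A KRAB box was called from a sequence pattern in the translated coding sequence, which 230 of the 390 Zfp genes matched. Among own-promoter elements of these genes, 35 of 50 were positive (70.0%, interval 55.4 to 82.1). Among those of Zfp genes without a match, 6 of 63 were positive (9.52%, interval 3.58 to 19.6), beside the 15.1% of other genes. With a narrower pattern, which misses diverged boxes such as those of Zfp931, Zfp970 and Zfp971, the shares were 71.1% and 13.2%. The pattern in use may miss diverged boxes too, so Zfp genes without a match may include some that carry a KRAB box. Median positive effects were 1.20 at KRAB promoters and 0.99 at the others, and median negative effects were -1.33 and -1.40, so the kinds differed in sign more than in size. Distal elements were positive in 25 of 29 cases near KRAB genes (86.2%) and in 39 of 52 near the others (75.0%), shares whose intervals overlap. Over all elements, 64 of 85 of KRAB genes and 46 of 118 of the others were positive.

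The counts by gene differed between the kinds in the same way. Of the 230 KRAB genes, 72 had an element, 56 had a positive one, 19 had a negative one and 3 had both. Of the 160 other Zfp genes, 73 had an element, 33 had a positive one, 58 had a negative one and 18 had both. As shares, 31.3% of KRAB genes and 45.6% of other Zfp genes had an element, against 31.07% of the other protein-coding genes. A positive one was assigned to 24.3%, 20.6% and 15.8% of these, a negative one to 8.26%, 36.3% and 19.7%, and both signs to 1.30%, 11.3% and 4.48%. The KRAB proteins had a median of 12 C2H2 fingers by pattern and the others 7. Among KRAB genes, those with a positive own promoter had a median of 11 fingers and those with a negative one 10.5.

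The 2 kinds of promoter also differed in base composition. The median GC content was 55.8% over own-promoter elements of KRAB genes, 66.8% over those of other Zfp genes and 67.2% over those of other protein-coding genes. CpG dinucleotides numbered 45.4, 90.3 and 90.7 per kb at the median. KRAB genes also had the lowest median GC in 200 bp windows at the annotated TSSs, which do not depend on the screen. There it was 53.2% over 230 KRAB genes, 64.5% over 160 other Zfp genes and 59.3% over other protein-coding genes. Positive KRAB promoter elements had a median GC of 53.2% and negative ones 63.1%.

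**Figure D2:**
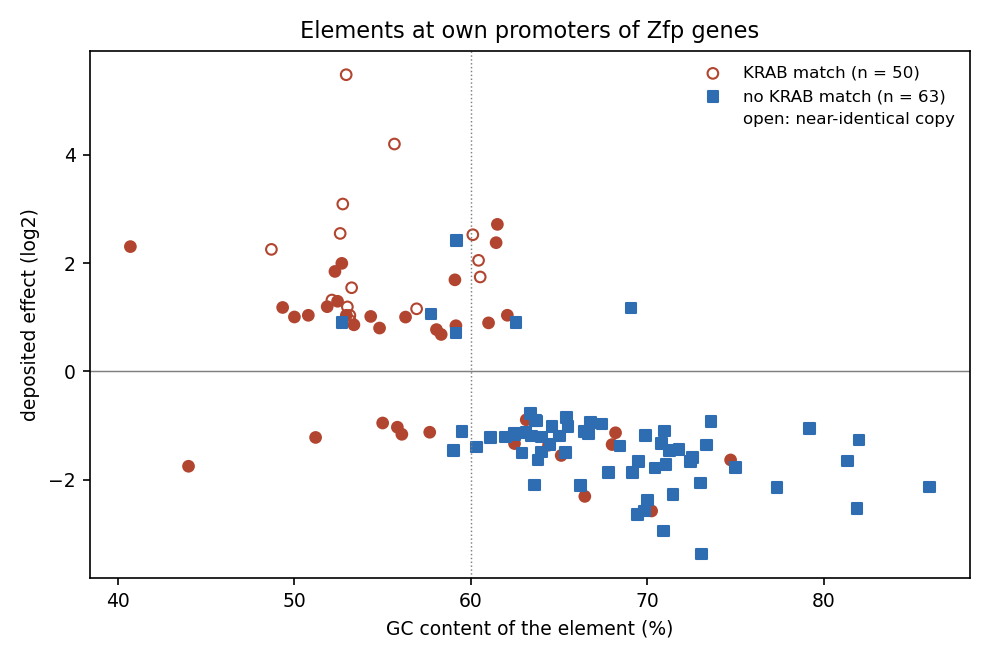
Deposited effect (log2, vertical axis) against GC content (%, horizontal axis) of the 113 elements at own promoters of Zfp genes; red circles are KRAB genes (n = 50), blue squares the other Zfp genes (n = 63), open symbols have a near-identical copy, and the dotted line marks 60% GC. Positive elements lie mostly below 60% GC and negative ones mostly above it in both kinds.

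Sign followed GC content in both kinds and in the rest of the list. Below 60% GC, 28 of 34 KRAB promoter elements, 4 of 6 of the other Zfp promoters and 69.7% of 686 promoters of other genes were positive. At 60% GC and above, 7 of 16, 2 of 57 and 6.16% of 4175 were positive. The kinds stood apart most between 60 and 65% GC, where 7 of 10 KRAB elements, 1 of 18 of the other Zfp elements and 17.8% of 1020 elements of other genes were positive. The 7 included Zfp119a, Zfp119b and Zfp959, whose promoters are near-identical copies of each other and so count as related sequences. At the positive rate of other genes' promoters in the same bins of 5 GC points, 27.5 of the 50 KRAB elements and 7.49 of the 63 other Zfp elements would be positive, or 55.1% and 11.9%. The observed 35 and 6 were 70.0% and 9.52%. Without elements with a near-identical copy, 21 of 36 KRAB elements were positive (58.3%). The rate from the GC bins was not computed for those 36. The part of GC content in the difference between the kinds was not tested.

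**Figure D3:**
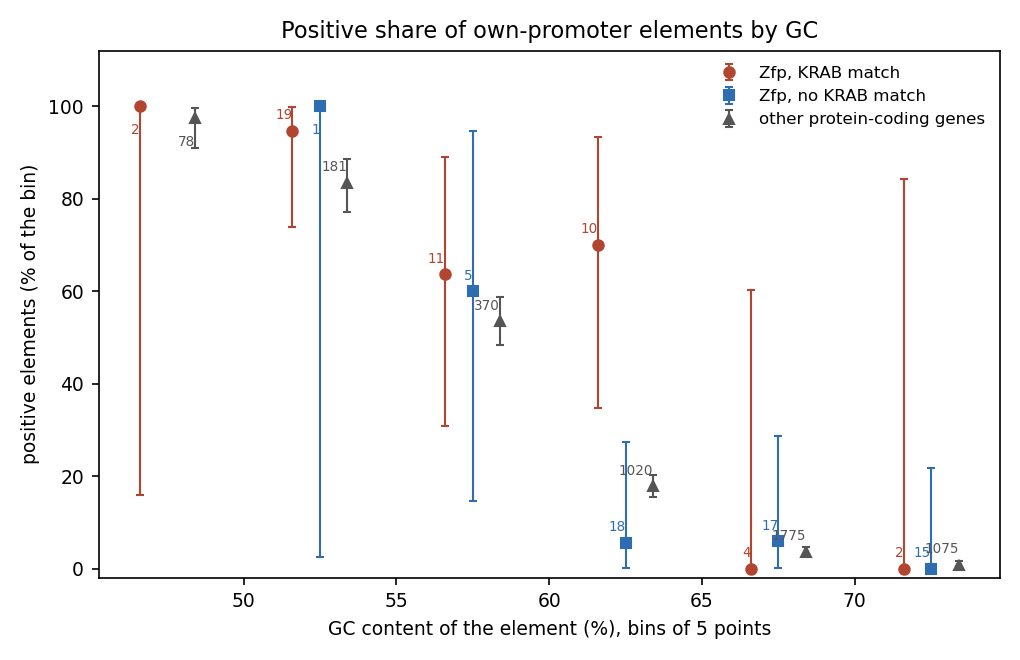
Positive elements as a share of the own-promoter elements (%, vertical axis) in bins of 5 points of GC content (horizontal axis, 45 to 75%), for KRAB Zfp genes, other Zfp genes and other protein-coding genes; bars are exact 95% intervals over elements and small numbers give the elements in each bin. At 60 to 65% GC the share was 70.0% of 10 KRAB elements and 17.8% of 1020 elements of other genes.

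The 3 largest positive effects at KRAB promoters, at Zfp931, Zfp970 and Zfp772, lay in sequences with near-identical copies elsewhere on their chromosome. On chromosome 2, the elements at the promoters of Zfp931 (5.48), Zfp970 (4.20), Zfp972 (2.26) and Zfp971 (1.55) were all positive. Zfp772 had 3.09 on chromosome 7 and Zfp934 had 2.55 on chromosome 13. On chromosome 17, Zfp758 (2.72), Zfp943 (2.38), Zfp945 (2.31) and the trio Zfp119b (2.53), Zfp119a (2.05) and Zfp959 (1.75) were positive. Smaller positive effects stood at Zfp932 (1.16), whose protein is known to repress endogenous retroviruses, Zfp617 (1.04), Zfp719 (1.02), Zfp386 (1.01) and Zfp689 (0.77). The lowest was 0.68, at Zfp235.

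Negative elements at KRAB promoters numbered 15. The lowest were those of Zfp777 (-2.58, 70.2% GC) and Zfp282 (-2.31, 66.5% GC), both on chromosome 6, followed by Zfp300 on chromosome X (-1.75, 44.0% GC) and a further element of Zfp777 (-1.63, 74.7% GC). Zfp583 had -1.22 at 51.2% GC, so, as at Zfp300, a low GC content did not always go with a positive sign. Both elements were narrow, at 125 bp (Zfp583) and 50 bp (Zfp300), so their GC content covers few bases. Zfp760 (-1.03, 55.8% GC) was the negative member of a chromosome 17 cluster whose other elements were positive.

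Among the Zfp genes without a KRAB match the 6 positive own promoters were those of Zfp750 (2.42), Zfp598 (1.17), Zfp473 (1.06), Zfp207 (0.91), Zfp143 (0.91) and Zfp446 (0.71). Zfp750 is known from the differentiation of the epidermis, and its element was 125 bp wide. Zfp598 encodes a sensor of collided ribosomes, and its element was positive at 69.1% GC, the highest of the 41 positive own promoters. Zfp473 takes part in the processing of histone mRNA, Zfp207 in the attachment of chromosomes to the spindle, and Zfp143 binds promoters of coding and small nuclear RNA genes. The 57 negative ones included the lowest effects of all Zfp elements. Zfp280d had -3.37, Zfp385b -2.95, Zfp326 -2.64, Zfp652 -2.58, Zfp532 -2.52, Zfp423 -2.37 and Zfp395 -2.27. Zfp326 belongs to a complex that links RNA polymerase to splicing, and Zfp423 is a developmental factor of neural and fat cell precursors. Genes with more than 1 negative promoter element were Zfp532 (-2.52 and -1.65), Zfp512b (-2.13 and -1.86), Zfp800 (-1.72 and -1.05), Zfp236 (-1.66 and -1.19), Zfp516 (-1.48 and -1.26), Zfp651 (-1.46 and -1.13) and Zfp710 (-1.21 and -0.93).

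Near-identical copies were found for positive Zfp elements only. A copy was another match of at least 95% identity over at least 90% of the element, and 28 Zfp elements had one. All 28 were positive, which is 25.5% of the positive Zfp elements against 10.6% of the other positive elements. None of the 93 negative Zfp elements had a copy (upper bound 3.89%), against 0.139% of the other negative elements. Of the 28, 26 had a copy on their own chromosome, 14 lay at own promoters and 17 had a copy at another listed element. The median positive effect was 2.15 with and 1.22 without a copy. How reads that match several copies were placed is not given in the sources used here, and the part of such placing in these effects was not tested. Without elements with copies, 21 of 36 own-promoter elements of KRAB genes were positive (58.3%) against the same 6 of 63 for the others.

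Copies of 1 sequence did not all have the same effect. The promoter of Zfp931 had 28 copies, all on chromosome 2, among them those at Zfp965, Zfp970, Zfp971 and Zfp973. The 9 listed elements at these copies had effects from 1.55 to 6.15. The promoters of Zfp119a, Zfp119b and Zfp959 matched each other at up to 97.1% identity and had 2.05, 2.53 and 1.75. The only copy of the Zfp808 element (0.94) was at Zfp934 (2.55), at 96.9% identity. With no replicate values, whether these copies differ beyond error cannot be said.

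The largest effect near any Zfp gene was also the largest of the 10531 listed elements. It was 8.89 (adjusted p = 9.9e-12 in the authors' deposited table), in an element of 900 bp at chr17:21477701-21478600, outside genes and 10848 bp from the TSS of Zfp53. Repeat masking covered 79.3% of its bases, at 45.4% GC, but it had no near-identical copy by the limit above. The distal effects that followed were 5.68 in an intron near Zfp991, 3.85 near Zfp947, 3.63 near Zfp386, 3.44 near Zfp954, 3.32 in an intron on chromosome 18, 68341 bp from the TSS of Zfp407, and 3.17 near Zfp280d. The elements near Zfp991 and Zfp386 had copies and those near Zfp947, Zfp954, Zfp407 and Zfp280d had none by that limit. Repeat masking covered 80% of the bases near Zfp947, 28% near Zfp954, 17.3% near Zfp280d and 0% near Zfp407. Near Zfp957 on chromosome 14, neighbouring elements had 2.87 and 2.83, and the first matched at least 100 other places in the genome. Negative distal elements numbered 17, led by Zfp618 (-2.24), Zfp827 (-2.18 and -1.17) and Zfp945 (-1.81).

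Clusters of Zfp genes had elements of 1 sign or of both. A cluster was 3 or more Zfp genes of the annotation, with or without an element, with neighbouring gene starts at most 200 kb apart. There were 30 clusters with 193 genes, and 68.7% of KRAB genes but 21.9% of other Zfp genes lay in one. Of the 26 clusters with an element, 13 had positive elements only, 7 negative only and 6 both. A single element, which fixes the sign, was all that 8 of these clusters held. Of the 18 clusters with 2 or more elements, 9 had positive elements only, 3 negative only and 6 both. Elements of clustered genes were positive in 43 of 65 cases (66.2%) and those of unclustered genes in 67 of 138 (48.6%). At own promoters, KRAB genes were positive in 23 of 33 clustered and 12 of 17 unclustered cases, or 69.7% and 70.6%. Other Zfp genes were positive in 1 of 8 and 5 of 55 cases.

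The clusters with most elements went opposite ways, but their elements also differed in place. On chromosome 17, the cluster from Zfp677 to Zfp943, with 13 genes, all KRAB, had 8 elements. Of these 7 were positive, at Zfp53 (8.89 and 1.46), Zfp943 (2.38), Zfp51 (1.97), Zfp52 (1.42), Zfp983 (1.04) and Zfp995 (0.86), and Zfp760 was negative. On chromosome 6, the cluster from Zfp786 to Zfp746, with 7 genes of which 4 matched KRAB, had 6 elements, all negative. They were those of Zfp777 (-2.58 and -1.63), Zfp282 (-2.31), Zfp746 (-1.77), Zfp956 (-1.52) and Zfp398 (-1.35). The elements of Zfp53, Zfp51 and Zfp52 were distal, and 84.7% of all listed elements away from promoters were positive. The positive elements of Zfp943, Zfp983 and Zfp995 and the negative one of Zfp760 lay at own promoters. In the chromosome 6 cluster, those of Zfp777, Zfp282, Zfp956 and Zfp398 lay at promoters. Of all listed promoter elements, 19.9% were positive. The part of place in the contrast between these clusters was not tested. Zfp746 encodes a repressor of the metabolic coactivator PGC-1alpha. The element of Zfp956 lay 104 bp from the start of the pseudogene Zfp783. The largest cluster, 23 KRAB genes on chromosome 13, had 3 elements, at Zfp456 (1.23), Zfp874b (1.04) and Zfp874a (1.01).

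**Figure D4:**
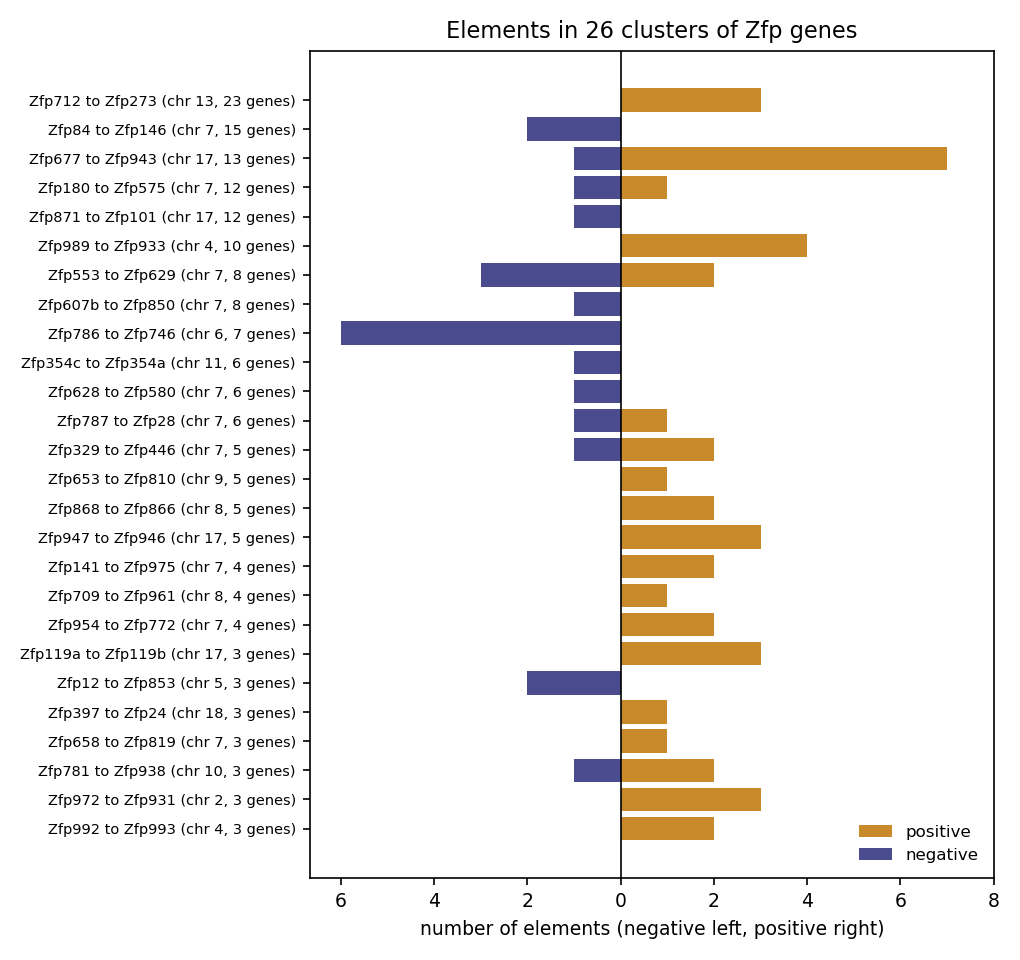
Number of positive (right, ochre) and negative (left, violet) elements in each of the 26 clusters of Zfp genes that had an element, ordered by the number of genes in the cluster; each row gives the first and the last gene. The cluster from Zfp677 to Zfp943 had 7 positive and 1 negative element and the one from Zfp786 to Zfp746 had 6 negative ones.

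Zfp genes with elements at several places were most often negative at their promoter and positive elsewhere, as was the list at each place. Of all listed promoter elements 19.9% were positive, and of those away from promoters 84.7%. How often other genes had each pattern was not counted. Of 22 Zfp genes with an own-promoter and a distal element, 13 had a negative promoter with positive distal elements only. None had a positive promoter with negative distal elements only. In 4 genes (Zfp386, Zfp473, Zfp958 and Zfp984) both places were positive and in 2 (Zfp292 and Zfp395) both were negative. Zfp217 and Zfp703 had a negative promoter, and Zfp945 a positive one, with distal elements of both signs. The widest gaps were at Zfp280d (3.17 and -3.37), Zfp407 (3.32 and -1.36), Zfp945 (2.31 and -1.81), Zfp629 (2.01 and -2.11) and Zfp532 (1.47 and -2.52). Of the 21 genes with both signs, 18 had no KRAB match.

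The most elements were assigned to Zfp217 and Zfp281, with 6 each. Zfp217 is the mouse counterpart of a gene amplified in human breast cancer, and its elements had 1.85, 1.02, 0.83, 0.81, -0.91 and, at the promoter, -1.86. Zfp281 is a GC-box binding factor studied in embryonic stem cells. Its promoter element had -1.21, and its distal elements, 12262 to 74349 bp away, had 2.16, 1.94, 1.19, 1.13 and 1.07. All 5 distal elements of Zfp281 were positive, at 39.2 to 47.8% GC, while its promoter element held 61.9% GC. Zfp958 followed with 4 elements (2.44, 1.85, 1.30 and 1.06), all positive.

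**Figure D5:**
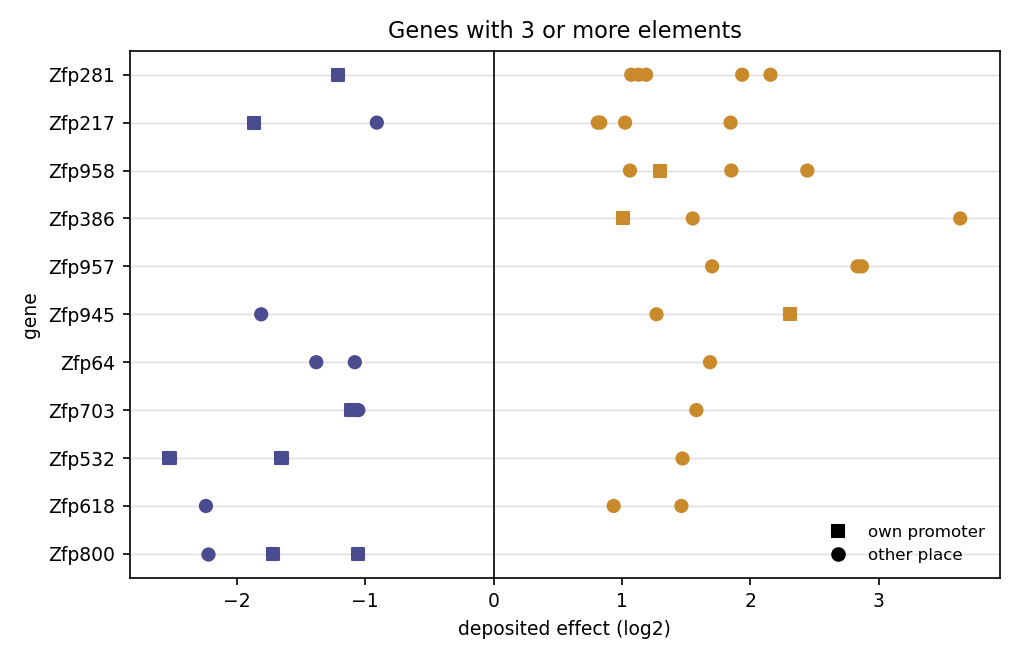
Deposited effect (log2, horizontal axis) of each element of the 11 Zfp genes with 3 or more elements; squares are own-promoter elements, circles elements at other places, ochre positive and violet negative. Zfp281 and Zfp217 had a negative promoter and mostly positive other elements, and all elements of Zfp958, Zfp386 and Zfp957 were positive.

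Zfp genes with known roles were counted in 4 lists, to be read against the 31.2% of protein-coding genes with an element. Of the protein-coding genes other than Zfp genes, 15.8% had a positive element, 19.7% a negative one and 4.48% both. Of 9 genes of retroelement and imprint control (Zfp57, Zfp445, Zfp809, Zfp932, Zfp568, Zfp961, Zfp708, Zfp819 and Zfp42), 1 had an element, the positive promoter of Zfp932. Of 7 regulators of lymphocytes or signalling, 5 had one, all 5 with a positive and 4 also with a negative element. These 5 included Zfp217 and Zfp281, described above. Zfp318, which controls IgD expression in B cells, had -1.66 at its promoter and 1.39 at 6781 bp. Zfp64 had 1.68, -1.08 and -1.38 at distal sites, and Zfp148, a factor that binds GC-rich promoters, had 1.21 in a distal element. Of 7 general promoter and chromatin factors 5 had an element, 3 with a positive and 3 with a negative one. Beside Zfp407, Zfp326, Zfp207 and Zfp143 described above, Zfp292 had -1.19 at its promoter and -1.42 at 3890 bp. Of 8 developmental factors 5 had one, 3 with a positive and 4 with a negative one. Among these, Zfp423 had the -2.37 at its promoter given above, Zfp703 had 1.58, -1.05 and -1.11, Zfp503 of the same family 1.22 and -1.20, Zfp521 -1.36 and Zfp608 1.38.

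The partners through which KRAB proteins act had elements of both signs, the negative ones all at promoters, where 84.8% of the negative elements of the list outside Zfp genes also lay. Of 22 genes of the KRAB repressor complex and its silencing partners, 13 had an element, 5 a positive and 10 a negative one. Of the protein-coding genes other than Zfp genes, 15.8% had a positive and 19.7% a negative one. Trim28 itself, the corepressor, had -1.64 at 348 bp from its TSS. Negative promoters also stood at Sumo2 (-1.93), a modifier of TRIM28, at Hdac2 (-1.89) and Chd4 (-1.22) of the NuRD deacetylase complex, and at the HP1 genes Cbx3 (-1.46) and Cbx1 (-1.10). Trim33 had -1.67 and -1.18. The third HP1 gene, Cbx5, had 0.85 at its promoter, at 54.5% GC. Setdb1, the methyltransferase, had 2.38 at 3336 bp from its TSS, and Atf7ip, its partner, had 1.04 and 0.85. Fam208a of the silencing complex HUSH had 2.14 at 8191 bp and -0.88 at its promoter, and Trim24 had -1.22 at its promoter with 2.43, 2.25 and 1.47 at 48773 to 97298 bp. No element was assigned to Chd3, Mta2, Hdac1, Morc2a, Mphosph8, Pphln1, Dnmt1, Uhrf1 or Smarcad1.

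Motif matches were counted on both strands in the central 200 bp of each element and in 41492 windows of that length at protein-coding TSSs. The letters searched were TGANTCA for AP-1, TGACGTCA for CRE, CCGGAAG for ETS, GGGCGGG for SP/KLF, AAGATGGC for YY1, CCAAT for NFY, TATAAA for the TATA box, CACGTG for the E-box, GCGCATGC for NRF1, TCTCGCGA for ZBTB33, TTTCCCGC for E2F and TGTGGT for RUNX, with ISRE and ZNF143 by longer patterns. At Zfp own promoters, NFY letters stood in 15 of 41 positive elements (36.6%, interval 22.1 to 53.1) and 8 of 72 negative ones (11.1%, interval 4.92 to 20.7). They stood in 25.3% of all protein-coding TSS windows, 32.4% of KRAB TSS windows and 19.3% of all listed elements. SP/KLF letters went the other way, with 14.6% of positive and 33.3% of negative Zfp promoters, and 27.4% of all TSS windows. Own promoters of other protein-coding genes had the same directions, with NFY letters in 184 of 735 positive and 633 of 4126 negative elements (25.0% and 15.3%) and SP/KLF letters in 132 of 735 and 1765 of 4126. Over whole elements, which are longer than 200 bp in most cases, NFY letters stood in 80.5% of positive and 38.9% of negative Zfp own promoters and SP/KLF letters in 39.0% and 68.1%. The part of GC content in these shares was not tested. ETS letters stood in 19.9% of KRAB TSS windows and 9.09% of all, and in 17.1% of positive and 11.1% of negative Zfp promoters. YY1 letters stood in 1 of 41 positive and 2 of 72 negative Zfp own promoters (2.44% and 2.78%), and in 2.95% of all TSS windows. For E-box letters the counts were 4 of 41 and 1 of 72 (9.76% and 1.39%), beside 5.09% of all TSS windows.

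At positive distal Zfp elements AP-1 and RUNX letters were about as frequent as at other positive distal elements. Of the further motifs named here, out of 14 searched, only NRF1 had an interval without the share of the others, from 2 elements. AP-1, the site of FOS, JUN and BATF factors that T cell activation induces, matched in 29.7% of the 64 positive distal elements and in 29.2% of other positive distal elements. RUNX letters matched in 20.3% and 22.4%. ISRE, the site of interferon regulatory factors, matched in 4 of the 64 (6.25%, interval 1.73 to 15.2) against 13.8% of the others. SP/KLF letters matched in 5 of the 64 (7.81%, interval 2.59 to 17.3) against 2.99%. E-box letters matched in 4 of the 64 (6.25%, interval 1.73 to 15.2) against 2.80%. NRF1 letters matched in 2 of the 64 (3.13%, interval 0.381 to 10.8) against 0.282%. YY1 letters matched in none of the 64 (upper bound 5.60%) against 2.56%. A match is a description of letters in the window and does not show that a factor was bound.

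Some elements counted for Zfp genes lay nearer to the start of a gene of another type. This held for 70 of the 203. Of these, 13 were among the 113 at own promoters. The other 57 were among the 81 distal elements and the 9 at promoters of other genes. How often this held for the other listed elements was not counted. The nearer starts were 27 lincRNA, 11 antisense and 11 processed pseudogene starts and smaller numbers of other types. The case that stood out was Zfp386, which lies at the end of the immunoglobulin heavy chain locus on chromosome 12. Of its 3 elements, the one at 1.55 lay 106 bp from the start of the variable segment Ighv1-82, and the one at 3.63 lay 3413 bp from that of the pseudogene Ighv1-83. A further 18 listed elements, all positive (1.54 to 3.86), had Zfp386 as the nearest protein-coding start at more than 100 kb, all within the immunoglobulin segments at chr12:113254830-116010093. Just inside the 100 kb limit were the Zfp386 element at 94999 bp (1.55) and a Zfp608 element at 93078 bp (1.38). Just outside were elements 106545 bp from Zfp354c (1.65) and 112675 bp from Zfp960 (2.15).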

How the data were processed

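The deposited list holds, for each element on mm10 per the labels, an effect that was taken as log2 from its values, and a p-value, raw and adjusted, from the authors. Both replicates were pooled by the authors; the aligner, the caller and how replicates entered the p-values are not given in the sources used here. A Benjamini-Hochberg adjustment over 114722 implied tests gave the adjusted values within 0.1 percent for 10531 of 10531 elements.

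Elements were assigned by midpoint to the nearest protein-coding TSS of GENCODE M21 basic. Sequence came from GRCm38.p6 (samtools 1.23.1, pysam 0.24.0) and copies from minimap2 2.31, with at most 100 recorded per element. KRAB boxes and fingers were called by pattern from translated GENCODE coding sequences, since a RefSeq protein table was not used here. The KRAB pattern was widened after effects had been seen, to include diverged boxes, and the narrower one is kept as an alternative. Counts, medians and Clopper-Pearson intervals were computed in Python 3.11.15 (pandas 2.3.3, NumPy 2.4.6, SciPy 1.17.1) and checked on simulated data. Figures used matplotlib 3.10.9. No test was run, because 1 pooled list has no replicate values.

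Members and lists were chosen with earlier results of these data known. Named were the 10 largest and 10 most negative elements, the 5 genes with most elements, the 10 widest gaps between signs and the 3 largest per role list. Other genes of a described group were named after their values were seen. 1 gene counted in the list of KRAB partners is not reported here.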

Additional observations from a re-analysis of the deposited data

How the results depend on the processing

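12 alternative values lay outside the interval of the reported value. At an adjusted p of at most 0.001 the median positive effect was 1.65 and the negative one -1.59. Without elements with a near-identical copy, 46.9% of Zfp elements and 28.3% of Zfp promoter elements were positive. Within 10 kb, 43.4% of elements were positive and 79.3% were at promoters, and 74.8% were at promoters when starts of all gene types entered the assignment. When both parts of the KRAB pattern were required, 20.3% of own promoters of the remaining Zfp genes were positive. In whole elements instead of their central 200 bp, NFY letters stood in 80.5% of positive and 38.9% of negative own promoters and SP/KLF letters in 39.0% and 68.1%. The other 68 alternative values kept within the interval of the reported value, or within 1.5 times a reported count. The narrower KRAB pattern and the alternatives on the own-promoter shares, the motif window and the complex list were chosen after seeing the data. No replicate could be left out and no paired analysis was possible because the list pools both replicates. The depth is unknown, so what it limits cannot be stated.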

Other observations

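The balance of signs of Zfp elements differed between chromosomes, as values without a test. On chromosome 17, with 45 Zfp genes in the annotation, 19 of 24 elements were positive, and on chromosome 13 8 of 10 were. On chromosome 6, 1 of 12 was positive, and on chromosome 15 none of 4. The cluster from Zfp786 to Zfp746 held 6 of the negative elements on chromosome 6. Chromosome 7, with 91 Zfp genes, had 18 positive and 16 negative elements. The signs of all listed elements on each chromosome were not counted, and these counts mix promoter and distal elements and both kinds of Zfp gene. Positive Zfp elements had a median width of 575 bp, against 475 bp for the other positive elements, and negative ones 725 bp against 800 bp. Promoters held 41.8% of the positive Zfp elements and 19.6% of the other positive elements. By place, the positive medians were 775 against 725 bp at own promoters and 375 against 425 bp at distal sites. The negative medians were 850 against 825 bp at own promoters and 475 against 575 bp at distal sites. Of the 113 elements at own promoters, 32 lay at promoters with a start of another gene on the opposite strand within 1000 bp (28.3%), against 20.4% of 4861 own-promoter elements of other protein-coding genes. Among KRAB genes 7 of 11 such elements were positive, and among the other Zfp genes 2 of 21. At promoters without one, 28 of 39 and 4 of 42 were positive. At the promoters of other protein-coding genes 17.2% with and 14.6% without such a start were positive.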
